A study of Mus musculus with 8 samples.

Results

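The genes described here are 8 regulators of transcription that mark the deep layers of the developing cerebral cortex: Tbr1, Bcl11b, Fezf2, Sox5, Foxp2, Tle4, Zfpm2 and Bcl11a. They were chosen by symbol, with earlier results of these data known, from the 23284 gene symbols counted in each library, and all 8 were among the 14696 genes that passed the filter on low counts. Polyadenylated RNA was sequenced from dorsal cortex of C57BL/6 mouse embryos at age E15.5, in 4 libraries of wild-type (WT) embryos and 4 of embryos labelled ErbB4 -/- (KO). Meninges and ganglionic eminences had been removed. ErbB4 is a receptor tyrosine kinase for neuregulins, and mice that lack it were kept alive, per the study, by ErbB4 expressed in the heart from the alpha-MHC promoter. The lines were bred as homozygotes, so WT and KO embryos had different mothers. Whether WT embryos carried that transgene, and from which litters the embryos came, is not given in the sources used here. The comparison of KO with WT asks which genes of the embryonic cortex differ in abundance when ErbB4 is lost.

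Neurons of the cortex are born in order, deep layers before upper layers, and a small network of factors that repress each other assigns them their fate. Tbr1, a T-box factor, directs layer 6 neurons that project to the thalamus. Fezf2, a zinc finger repressor, directs layer 5 neurons that project to brainstem and spinal cord, with Bcl11b (Ctip2) acting after it in axon growth. Sox5 is a SoxD factor that controls the sequence in which these corticofugal neurons arise, Foxp2 is a forkhead repressor of layer 6 neurons, and Bcl11a (Ctip1) is the close relative of Bcl11b. Tle4 is a Groucho corepressor and Zfpm2 (Fog2) a cofactor of GATA factors, and both act through partners that bind DNA.

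Facts of the whole series bear on every value below. Between 28205703 and 48871480 reads were counted per library, and the members had from 836 to 23942 reads each. Values are given as CPM, counts scaled to the total of the library after correction by edgeR's TMM method. The count of Erbb4 itself was not lower in the libraries labelled ErbB4 -/- (18.3 ± 6.81 CPM in WT and 22.4 ± 1.92 in KO, SD, n = 4 each), so directions below are those of the libraries labelled KO and WT. WT replicate 1 had 8.99 CPM of Erbb4 and the other WT libraries 19.2 to 25.3. The log2 fold change of Erbb4 was 0.28, with 0.06 without WT replicate 1 and 0.48 without WT replicate 3. Counts per gene do not show which exons were covered, so this value does not check the deletion itself. WT replicate 1 stood apart: across genes its deviation from the mean of the libraries fell with transcript length (Spearman's rho = −0.579 over 14392 genes, which are not independent replicates, against 0.0372 to 0.223 in the other 7 libraries). Xist was at 983 to 1687 CPM in WT replicates 1 to 3 and at 2.70 to 3.82 CPM in WT replicate 4 and all KO libraries, so in sex-linked expression only WT replicate 4 matched the KO group. Sex and genotype therefore cannot be told apart in most of this comparison. Estimates with Xist as a covariate, given below, rest on WT replicate 4 as the only WT library with Xist as low as in KO. They are not estimates freed of sex.

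The region of the dissected tissue was checked against markers, which do not check the layer. The dorsal telencephalic gene Emx1 had 70.5 ± 9.26 CPM in WT (SD, n = 4), while 6 genes of midbrain, hindbrain and spinal cord (En1, En2, Pax2, Hoxa4, Hoxb5 and Hoxc6) summed to at most 0.638 CPM in any library, and Hoxa4 had 0 reads in all. Of 6 dorsal telencephalic genes 2 were higher and 4 lower in KO by sign (median log2 fold change −0.03, and −0.15 with Xist as a covariate), from Neurod1 and Slc17a7 (both 0.02) to Emx2 (−0.12) and Emx1 (−0.15). Their median ran from −0.069 without KO replicate 4 to −0.0027 without WT replicate 4. Genes of the striatum and ganglionic eminence, where Bcl11b and Foxp2 are also active, were present, with 16 genes summing to 591 to 789 CPM in WT and 581 to 790 in KO. Their part in the totals of Bcl11b and Foxp2 was not tested.

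None of the 8 factors differed between KO and WT at an adjusted p-value under 0.05 (edgeR's quasi-likelihood test, Benjamini-Hochberg adjustment over all genes tested), with adjusted p from 0.81 to 0.986. Of all genes tested, 4 passed (0.0272%). At an unadjusted p under 0.05 were 2 of the 8, Tle4 and Zfpm2, beside 812 of all genes (5.53%). DESeq2's Wald test and limma-voom likewise called 0 of the 8. The 95% intervals of the fold changes ran from 0.835-fold for the low end of Tbr1 to 1.35-fold for the high end of Zfpm2, and apart from Zfpm2 none reached above 1.21-fold, the high end of Tle4. By sign 5 factors were higher and 3 lower in KO, and their median log2 fold change was 0.01, against −0.0022 over all genes tested. These signs depended on the setting. With pan-neuronal library sizes 2 were higher and 6 lower (median −0.034), and 3 were higher and 5 lower both with Xist as a covariate (median −0.056) and with the length trend removed (median −0.065). In bulk tissue, fewer cells of a type and less RNA per cell cannot be told apart.

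**Figure D1:**
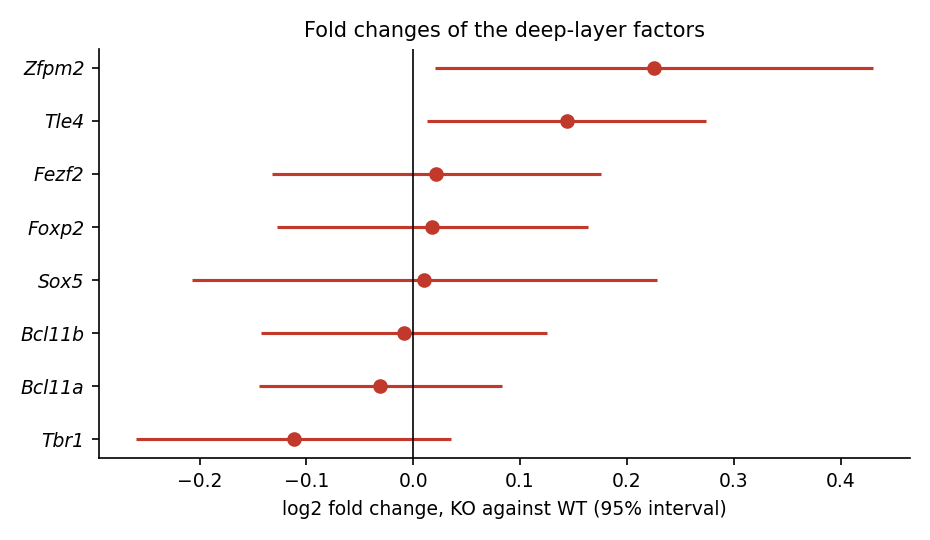
Log2 fold change (x axis) of KO against WT for each factor (y axis), with its 95% interval from edgeR's fit. The intervals of Zfpm2 and Tle4 lie above 0, and those of the other 6 genes cross it.

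Tbr1 lies on the plus strand of chromosome 2, from 61640987 to 61652171 in build mm9 (NCBIM37), with 2 coding transcripts in GENCODE. In WT replicates 1 to 4 it had 475, 414, 392.4 and 428 CPM, and in KO replicates 1 to 4 it had 375, 377, 412 and 418 CPM. The highest value was that of WT replicate 1, the 2 lowest were KO replicates 1 and 2, and the groups overlapped. The means were 427 ± 34.8 and 395 ± 23.0 CPM (SD, n = 4 each), a log2 fold change of −0.11 (95% interval −0.26 to 0.04, SE 0.067, edgeR adjusted p = 0.81). Without WT replicate 1 the log2 fold change was −0.06.

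Fezf2, which represses Tbr1 in layer 5 neurons and is itself repressed by Tbr1 in layer 6, lies on chromosome 14 from 13174406 to 13178379 on the minus strand, with a single annotated transcript. It had 158, 153, 147 and 184 CPM in WT replicates 1 to 4, and 154, 161, 170 and 166 CPM in KO replicates 1 to 4. The KO libraries all lay within the WT range, whose ends were WT replicates 3 and 4. The means were 160 ± 16.3 and 163 ± 6.88 CPM, a log2 fold change of 0.02 (95% interval −0.13 to 0.18, SE 0.07, edgeR adjusted p = 0.954). With Xist as a covariate the estimate was −0.18, which rests on WT replicate 4, the highest of the WT libraries.

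The 250 bases before the start of these mutually repressing genes are shown because their promoters are where such factors could act on each other, as listed by RefSeq on GRCm38.p6, a later build than that of the gene positions above. They are chr2:61804203-61804452 on the plus strand for Tbr1 and chr14:12345866-12346115 on the minus strand for Fezf2, each 5′ to 3′. Capitals mark exact matches, on either strand, to the SOX letters AACAAT or the BCL11 letters TGACCA.
Tbr1: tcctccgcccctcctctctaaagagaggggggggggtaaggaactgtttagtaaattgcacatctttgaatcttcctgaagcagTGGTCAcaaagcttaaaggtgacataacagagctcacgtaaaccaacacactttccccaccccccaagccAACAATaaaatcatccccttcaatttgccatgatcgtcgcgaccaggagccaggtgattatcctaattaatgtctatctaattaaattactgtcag
Fezf2: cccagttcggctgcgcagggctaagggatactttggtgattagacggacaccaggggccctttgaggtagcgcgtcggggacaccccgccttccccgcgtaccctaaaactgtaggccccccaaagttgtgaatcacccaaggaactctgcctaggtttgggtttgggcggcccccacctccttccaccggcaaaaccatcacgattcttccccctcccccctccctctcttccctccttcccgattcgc
The Tbr1 window held both motifs. The SOX letters were 96 to 91 bases before the start, and the BCL11 letters, on the opposite strand, were 166 to 161 bases before it. The Fezf2 window held no match. The same search of all 32851 promoter windows of the table found the SOX letters in 9.42% and the BCL11 letters in 11.4%, while the T-box letters AGGTGTGA were in 1.12% and the forkhead letters TGTTTAC in 3.17%. Of the 8 factors 6 had a window in the table, 7 windows in all, and Foxp2 and Zfpm2 had none. The SOX letters were in 2 of the 7 windows, the BCL11 letters in 1, and the T-box and forkhead letters in 0. The G and C content of the 7 windows ran from 39.6% for Sox5 to 70.8% for the downstream start of Tle4, around the median of 52.4% over all windows.

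Bcl11b and Bcl11a, zinc finger paralogs, were the factors with the most CPM. Bcl11b, on chromosome 12 from 109148613 to 109241812 on the minus strand, had 467, 521, 531 and 525 CPM in WT replicates 1 to 4 and 486, 482.3, 517 and 545 CPM in KO replicates 1 to 4. WT replicate 1 was the lowest of all 8 and KO replicate 4 the highest, so the groups overlapped over most of their range. The means of 511 ± 29.7 and 508 ± 29.5 CPM differed by a log2 fold change of −0.0088 (95% interval −0.14 to 0.13, SE 0.061, edgeR adjusted p = 0.981). Bcl11a, on chromosome 11 from 23978056 to 24074123 on the plus strand, had 453 to 492 CPM in the WT libraries, 437 CPM in KO replicate 1 and 471.6 to 474.4 CPM in the other KO libraries. All KO libraries but replicate 1 lay inside the WT range. Its log2 fold change was −0.03 (95% interval −0.14 to 0.08, SE 0.052, edgeR adjusted p = 0.899), the narrowest interval of the 8.

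Sox5 varied most within the KO group. It lies on chromosome 6 from 143776945 to 144730497 on the minus strand, and its 14 annotated transcripts include 8 that are coding. In WT replicates 1 to 4 it had 311, 334, 346 and 382 CPM, and in KO replicates 1 to 4 it had 277, 342, 388 and 376 CPM. KO replicate 1 was the lowest and KO replicate 3 the highest of all 8 libraries, so the KO group spanned the whole WT range. The means were 343 ± 29.7 and 346 ± 49.8 CPM, a log2 fold change of 0.01 (95% interval −0.21 to 0.23, SE 0.099, edgeR adjusted p = 0.986). Without KO replicate 1 it was 0.10. Exons of Sox5 overlap those of the antisense transcript 4933415D12Rik, and exons of Bcl11a those of 4930538E20Rik. The libraries do not keep the strand, so reads of either partner there cannot be told apart.

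Foxp2, also on chromosome 6 (14851349 to 15391977, plus strand), had 70.2, 78.3, 74.2 and 66.0 CPM in WT replicates 1 to 4 and 71.4, 76.0, 75.9 and 68.9 CPM in KO replicates 1 to 4. Every KO library fell inside the WT range. The means of 72.2 ± 5.26 and 73.1 ± 3.504 CPM gave a log2 fold change of 0.02 (95% interval −0.13 to 0.16, SE 0.067, edgeR adjusted p = 0.96).

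The cofactors Tle4 and Zfpm2, which act through partners that bind DNA, were the only members whose KO libraries all lay above all WT libraries. Over all genes tested, 273 (1.86%) had this arrangement and 491 (3.34%) had it in either direction. Tle4, on chromosome 19 from 14522562 to 14672473 on the minus strand, had 125, 135, 131 and 135 CPM in WT replicates 1 to 4 and 137, 154, 155 and 135 CPM in KO replicates 1 to 4. The gap was narrow, since WT replicate 2 at 135.14 CPM and KO replicate 4 at 135.39 CPM were nearly equal, and without the TMM factor Tle4 overlapped. KO replicates 2 and 3 carried most of the difference. The means were 132 ± 4.54 and 145 ± 10.4 CPM, a log2 fold change of 0.14 (95% interval 0.01 to 0.27, SE 0.06, edgeR adjusted p = 0.81).

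The promoter window of the upstream start of Tle4, the corepressor that Fezf2 recruits, is shown as the member whose levels lay apart and whose entry the table holds. It is chr19:14598184-14598433 on the minus strand of GRCm38.p6, from RefSeq, 5′ to 3′, in lower case throughout because none of the 4 motifs searched was in it.
Tle4: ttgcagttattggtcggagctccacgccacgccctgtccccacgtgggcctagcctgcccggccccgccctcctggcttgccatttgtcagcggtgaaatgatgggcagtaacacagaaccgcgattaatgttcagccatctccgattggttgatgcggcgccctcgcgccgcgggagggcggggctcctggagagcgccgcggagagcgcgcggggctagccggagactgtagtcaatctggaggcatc
The window of its downstream start held the SOX letters on the opposite strand, 71 to 66 bases before that start.

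Zfpm2, on chromosome 15 from 40486588 to 40936138 on the plus strand, was the factor with the fewest CPM and the largest fold change of the 8. It had 29.8, 38.2, 41.2 and 40.8 CPM in WT replicates 1 to 4, from 836, 1190, 1579 and 1431 reads. It had 42.1, 44.0, 45.1 and 44.3 CPM in KO replicates 1 to 4, from 2073, 1533, 1759 and 1395 reads. WT replicate 1 lay far below the other WT libraries, WT replicates 3 and 4 came within 2 CPM of the lowest KO library, and the KO libraries were close together. The means were 37.5 ± 5.28 and 43.9 ± 1.27 CPM, a log2 fold change of 0.23 (95% interval 0.02 to 0.43, SE 0.094, edgeR adjusted p = 0.81). Without WT replicate 1 the log2 fold change was 0.13 and with each library's trend with transcript length removed it was 0.17. With Xist as a covariate it was 0.13, the lowest of the alternatives run.

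**Figure D2:**
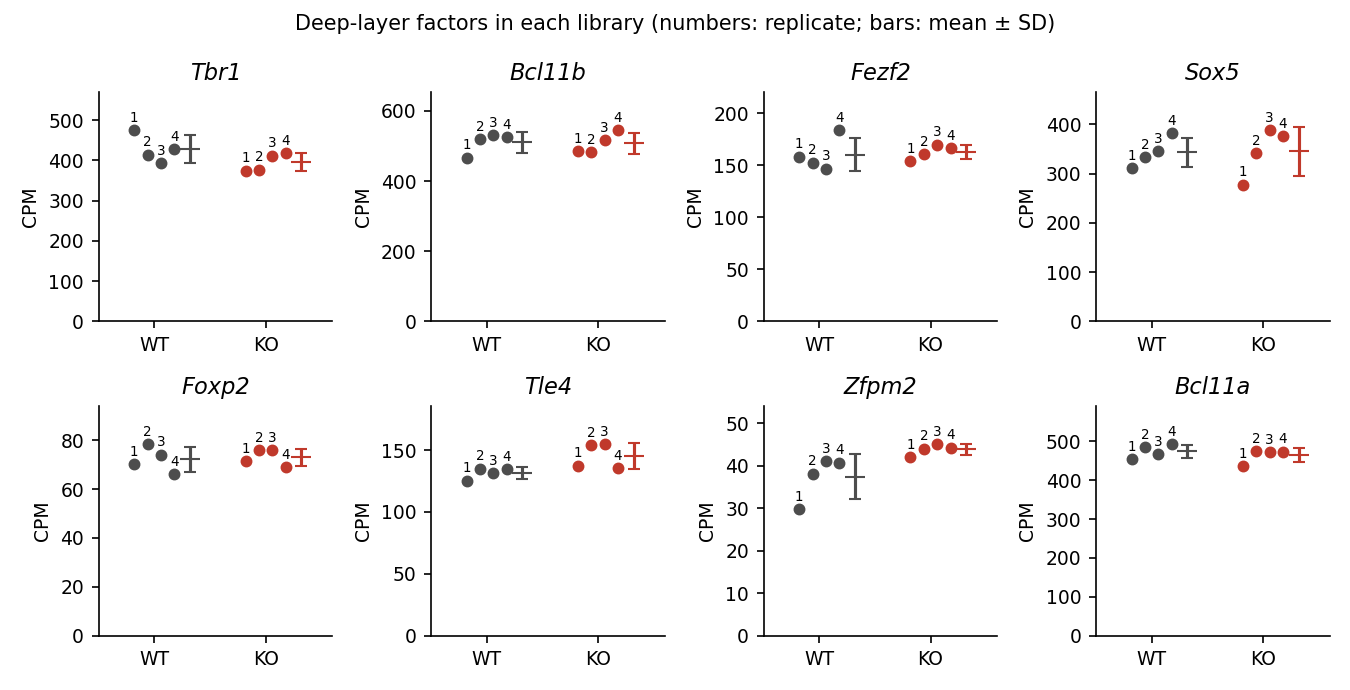
CPM (y axis, from 0) of each factor in each library, WT in grey and KO in red, with the replicate number above each point and the mean ± SD (n = 4) beside it. Only in Tle4 and Zfpm2 do the KO points all lie above the WT points, in Tle4 by 135.39 against 135.14 CPM.

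On the log2 scale, the mean deviation of the 8 from their own gene means ran from −0.094 in WT replicate 1 and −0.08 in KO replicate 1 to 0.085 in KO replicate 3. In WT replicate 1, 1 of the 8 was above its gene mean, Tbr1 at 0.21, while Zfpm2 was at −0.44, a span of 0.647. In KO replicate 1 also 1 factor was above its mean, Zfpm2 at 0.06, and Sox5 was lowest at −0.31. In KO replicate 3 all 8 were above their means, from 0.0049 for Tbr1 to 0.18 for Sox5. The coefficient of variation of the factors was 3.45% (Tle4) to 14.1% (Zfpm2) in WT and 2.88% (Zfpm2) to 14.4% (Sox5) in KO. The medians over the 10140 genes with a mean of at least 10 CPM were 8.78% in WT and 4.80% in KO.

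**Figure D3:**
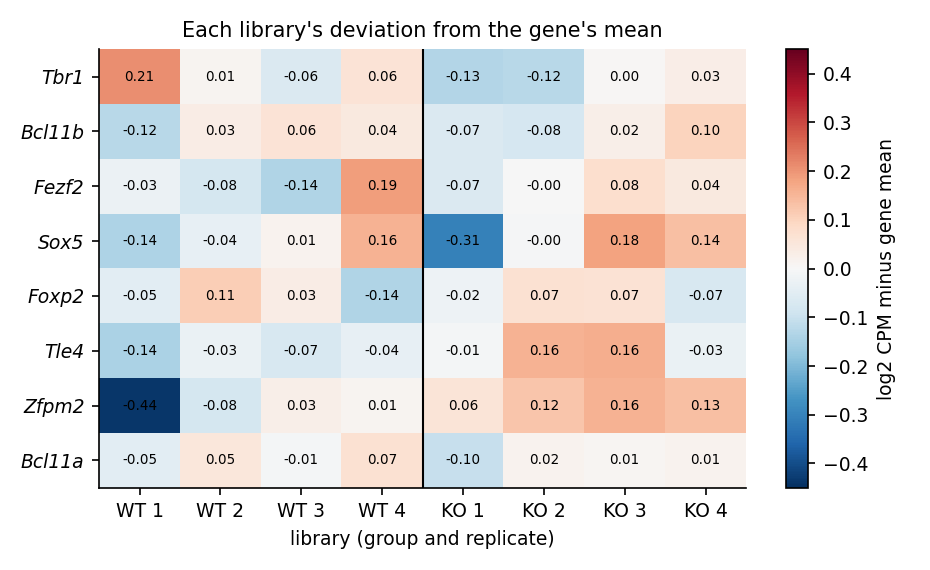
Deviation of each library (x axis) from the mean log2 CPM of the gene over all 8 libraries, for each factor (y axis), with the colour scale in log2 units. WT replicate 1 ranges from 0.21 for Tbr1 to −0.44 for Zfpm2, and KO replicate 3 is above 0 for all 8.

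As a description, the genes outside the 8 whose log2 CPM over the 8 libraries was most like the mean deviation of the factors were sought among 10132 genes with a mean of at least 10 CPM. They were Tiam2, Nr3c1, Adamts3, Wars2 and Cntn2, with Pearson's r from 0.939 to 0.995 over the 8 libraries and from 0.909 to 0.994 without WT replicate 1. These r are the highest of 10132 genes over 8 libraries, so their size follows in part from the choice and shows no shared regulation. Each library's depth and composition are shared by all its genes. Tiam2, a Rac exchange factor, had 360 CPM in WT and 381 in KO on average, a log2 fold change of 0.08 (edgeR adjusted p = 0.839). Cntn2 (TAG-1), an adhesion molecule on corticofugal axons, had 825 and 843 CPM, a log2 fold change of 0.03 (edgeR adjusted p = 0.927).

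Levels of different factors were compared as CPM per kilobase of the longest annotated transcript. Tbr1 was highest at 107 ± 8.76 in WT and 99.4 ± 5.78 in KO. Bcl11a (79.1 ± 2.94 in WT), Fezf2 (69.6 ± 7.06) and Bcl11b (63.0 ± 3.66) followed, and over the 8 libraries the range of Fezf2 overlapped those of both its neighbours. Sox5 came next at 47.4 ± 4.10 in WT, then Tle4 at 28.9 ± 0.996, Foxp2 at 10.7 ± 0.778 and Zfpm2 at 6.47 ± 0.911, each with a range apart from that of its neighbours. The order depends on the length used. The merged exons of Bcl11a, for example, span 13175 bases and its longest transcript 5989. Per kilobase of coding sequence Tbr1 was again first (209 ± 17.0 in WT) but overlapped Bcl11b (193 ± 11.2), and with all annotated exons merged it overlapped Fezf2 (77.9 ± 6.35 and 69.6 ± 7.06).

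Tbr1 was compared with Fezf2 and with Bcl11b within libraries, where depth cancels, as differences of log2 CPM, with p-values from the exact two-sided permutation test adjusted over the 3 pairs tested. Tbr1 over Fezf2 was 1.58, 1.44, 1.42 and 1.22 in WT and 1.28, 1.23, 1.28 and 1.33 in KO, a difference of −0.14 between the means (exact permutation p = 0.143, adjusted 0.3). With each library left out it ran from −0.20 without WT replicate 4 to −0.08 without WT replicate 1. WT replicate 4 was the lowest of all 8 and the other 3 WT libraries were the highest. Tbr1 over Bcl11b was between −0.38 and −0.33 in the 4 KO libraries, and in WT it ran from −0.44 in replicate 3 to 0.02 in replicate 1. The means differed by −0.10 (exact permutation p = 0.429, adjusted 0.429), and with each library left out by −0.16 (without WT replicate 3) to −0.0071 (without WT replicate 1).

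**Figure D4:**
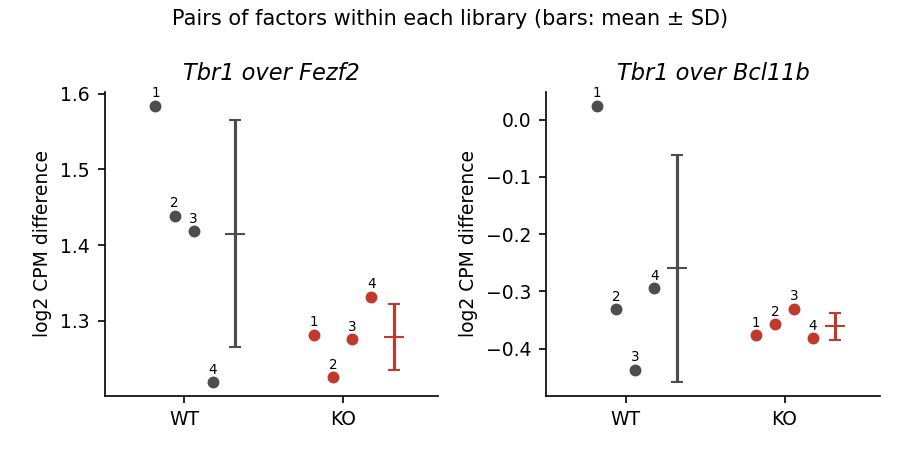
Difference of log2 CPM (y axis) between the 2 factors of each pair in each library, WT in grey and KO in red, with replicate numbers and the mean ± SD (n = 4). The groups overlap in both pairs, and in Tbr1 over Bcl11b WT replicate 1, at 0.02, is the highest library.

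Genes around the factors were examined by lists, none of which had a gene that passed an adjusted p of 0.05 (0.0272% of all genes tested did). Of 12 relatives of the factors in their families, 4 were higher and 8 lower in KO by sign, with a median log2 fold change of −0.04. That median ran from −0.057 without KO replicate 2 to −0.0053 without WT replicate 4. It was −0.084 with pan-neuronal library sizes and −0.10 with Xist as a covariate. The highest were Tle6 (0.29, SE 0.21, from about 1 CPM) and Foxp1 (0.16, SE 0.088), a forkhead partner of Foxp2, and the lowest were Sox13 (−0.25, SE 0.13) and Eomes (−0.13, SE 0.083), the T-box factor of intermediate progenitors that precedes Tbr1. Among the Groucho relatives of Tle4, Tle1 had −0.06 (SE 0.054), Tle3 −0.07 (SE 0.046) and Aes −0.07 (SE 0.07), of the opposite sign to Tle4. Tle2 was near 0 at −0.0027 (SE 0.13), and Tle6 had the sign of Tle4.

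Of 20 genes of corticofugal neurons, all tested, 12 were higher and 8 lower by sign, with a median of 0.04, and 2 had an unadjusted p under 0.05 (5.53% of all genes tested did). Hs3st4, a heparan sulfate sulfotransferase of layer 6, had 61.7 ± 5.02 CPM in WT and 73.8 ± 6.06 in KO, a log2 fold change of 0.26 (edgeR adjusted p = 0.81, SE 0.078). Igfbp4 had −0.17 (SE 0.074), with all KO libraries (77.3 to 81.0 CPM) below all WT libraries (83.9 to 104 CPM). The 104 CPM was WT replicate 1, and the other WT libraries had 83.9 to 84.1. Groups lay apart in either direction in 3.34% of all genes tested. Ppp1r1b had −0.15 (SE 0.14). Sulf1 had the largest value, 0.86 (SE 0.48), because KO replicate 3 had 40.5 CPM and the other KO libraries 7.88 to 10.8. Of 8 subplate genes, 7 were tested and 4 were higher and 3 lower by sign (median 0.04). Lpar1 was lowest at −0.27 (SE 0.097), with 17.4 to 23.7 CPM in KO and 24.4 to 26.5 in WT, followed by Nxph4 at −0.16 (SE 0.093). Ctgf (0.23, SE 0.19) and Moxd1 (0.12, SE 0.19) were highest, and Cplx3, at 0 to 4 reads, was not tested. With pan-neuronal library sizes the medians of the corticofugal and subplate lists were −0.0067 and −0.0025, and with Xist as a covariate they were 0.086 and 0.0039. With each library left out the corticofugal median ran from 0.0012 without KO replicate 3 to 0.078 without KO replicate 4 and 0.079 without WT replicate 1. The subplate median ran from 0.0098 without KO replicate 2, and 0.024, 0.028 and 0.028 without KO replicate 3, WT replicate 2 and WT replicate 3, to 0.058 without WT replicate 4.

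Of 12 callosal and upper-layer factors, 9 were higher by sign and the median was 0.11. An unadjusted p under 0.05 was found in 4 (5.53% of all genes tested had it), among them Rorb (0.31, SE 0.14), Mef2c (0.26, SE 0.096) and Bhlhe22 (0.24, SE 0.08). KO replicate 4 was below the highest WT library in these named genes and below every WT library in Rorb. The lowest of the list were Lhx2 (−0.06, SE 0.066) and Cux1 (−0.02, SE 0.047). With each library left out the median of the list ran from 0.05 without WT replicate 3 and 0.07 without KO replicate 2 to 0.17 without WT replicate 2, and it was 0.07 with pan-neuronal library sizes and 0.15 with Xist as a covariate. All 10 progenitor genes were lower by sign, with a median of −0.21, and 5 had an unadjusted p under 0.05 (5.53% of all genes tested did). The WT and KO libraries overlapped in each of the 10. With each library left out the median ran from −0.27 without KO replicate 4 to −0.16 without KO replicate 2. Among the progenitor genes Neurog2 was at −0.35 (SE 0.11) and Pax6 at −0.27 (SE 0.081), and Mki67 (−0.05, SE 0.13) and Sox2 (−0.12, SE 0.079) were nearest to 0. The 10 pan-neuronal genes had a median of 0.03, from Snap25 (0.16, SE 0.062) and Dcx (0.14, SE 0.096) to Neurod2 (−0.03, SE 0.087) and Neurod6 (−0.03, SE 0.085). That median was −0.011 without WT replicate 3 and 0.050 without WT replicate 1. With library sizes set to the summed pan-neuronal counts, the log2 fold changes of Tle4 and Zfpm2 were 0.09 and 0.18.

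**Figure D5:**
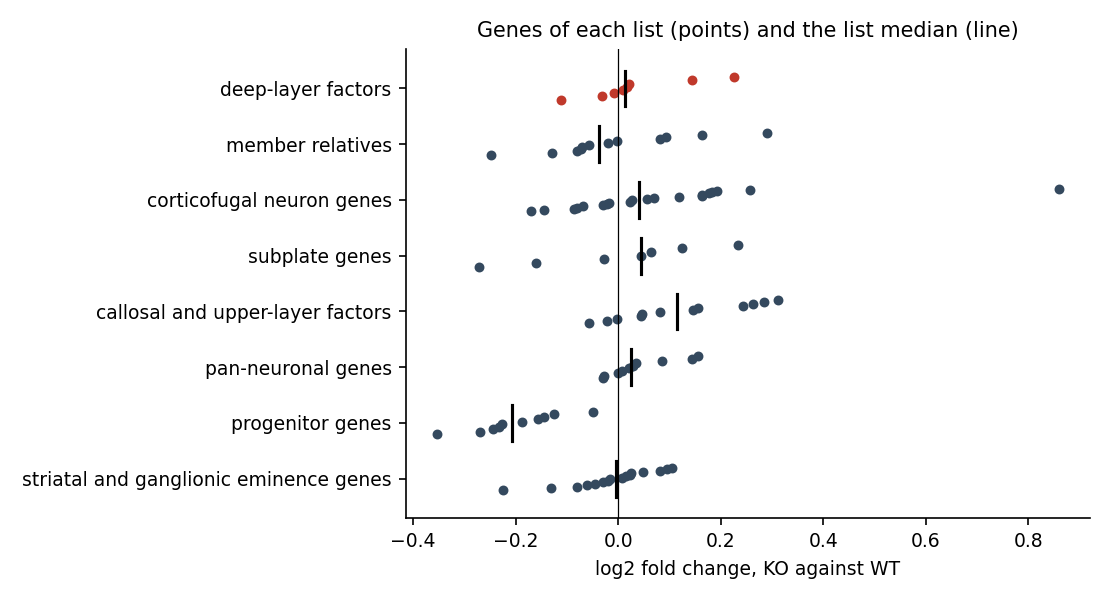
Log2 fold change (x axis) of KO against WT of each tested gene, as points, in the 8 factors and in 7 other lists (y axis), with the median of each list as a line. The factors have a median of 0.01, the callosal and upper-layer factors 0.11 and the progenitor genes −0.21.

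The summed level of the progenitor list was 1952 to 2320 CPM in WT and 1796 to 2163 CPM in KO, and that of the callosal and upper-layer list 2134 to 2360 and 2249 to 2564 CPM. The 8 deep-layer factors summed to 2077 to 2252 CPM in WT and 1995 to 2224 CPM in KO. The 16 striatal and ganglionic eminence genes had 8 higher and 8 lower by sign and a median of −0.0041, which was 0.23 with Xist as a covariate. Their median ran from −0.081 without WT replicate 4 to 0.073 without KO replicate 3. Single genes ran from Penk (0.10, SE 0.16) and Drd2 (0.09, SE 0.14) to Dlx5 (−0.13, SE 0.12) and Gsx2 (−0.22, SE 0.18). Of 8 meningeal and vascular genes, 7 were tested, and their median was 0.01. That median ran from −0.020 without KO replicate 3 to 0.10 without KO replicate 4 and 0.12 without WT replicate 1. Col1a2 (0.62, SE 0.29) and Col1a1 (0.05, SE 0.33) were highest and Cldn5 and Dcn lowest (both −0.04), and the list summed to 70.9 to 87.5 CPM in WT and 70.02 to 80.3 in KO. The part of other cells in the values of Tle4 and Zfpm2 was not tested.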

How the data were processed

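Single-end reads of polyA-selected, unstranded libraries were mapped to mm9 with HISAT and counted per gene with HTSeq-count by the authors (versions and gene annotation not given in the sources used here). The deposited files hold raw counts, 1 whole number per gene symbol and library, without normalization. The table of the authors' own DESeq2 comparison, which holds mean levels, fold changes and p-values, was not used here.

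Groups came from the labels. Counts were normalized with edgeR 4.0.16 (R 4.3.3, TMM), filtered (minimum count 10, minimum total 15) and tested over all genes kept with glmQLFit and glmQLFTest, with Benjamini-Hochberg adjustment and a threshold of 0.05. SE was the log2 fold change over the square root of F, and intervals are at 95%. Log2 CPM had a prior count of 2. For single values, all 70 assignments of the libraries were enumerated in an exact permutation test (two-sided). With nothing to show that the libraries of a group came from separate litters, p-values measure the spread between these libraries. Replicate pairs of a group differed by more than sampling noise (chi-square per degree of freedom 6.76 to 55.6), and each library was counted once.

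The 8 members and all lists were chosen with earlier results of these data known. Named genes were the members, the 2 highest and 2 lowest log2 fold changes of each list and any gene called, the genes of the pairs, the 5 genes most like the members' mean and Erbb4 and the sex-linked genes. Others (Tle1, Tle3, Mef2c, Bhlhe22) were added after their values were seen, and some genes and 1 pair that the rule names are not reported here. Map2 was found under Mtap2. Positions and lengths came from GENCODE vM1 on NCBIM37, the build of the counts, and promoters from RefSeq. Alternatives were DESeq2 1.42.0, limma-voom (limma 3.58.1), other normalizations and filters, covariates, a length correction and each library left out. Steps were tested on simulated data. Figures were drawn with matplotlib 3.10.9.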

Additional observations from a re-analysis of the deposited data

Results flagged for a closer look

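In 106 groups of 4 libraries (named genes and pairs), a library was marked where its gap to the nearest other, over the group's range, exceeded Dixon's critical value at 95%. Of these, 12 were marked. Chance marks about 1 group in 20 where genes are not chosen by their values, but many of these genes were named for their fold changes, which 1 outlying library can itself produce, so that rate is no comparison for them. Of the 16 groups of the deep-layer factors 2 were. Bcl11b had 467 CPM in WT replicate 1 against 521 to 531 in the other WT libraries. Bcl11a had 437 CPM in KO replicate 1 against 471.6 to 474.4 in the other KO libraries.

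Among corticofugal and subplate genes, Sulf1 had 40.5 CPM in KO replicate 3 (others 7.88 to 10.8), Igfbp4 had 104 CPM in WT replicate 1 (83.9 to 84.1) and Moxd1 had 2.53 CPM in KO replicate 2 (1.72 to 1.84). Collagen genes stood out in the KO replicate that had high Sulf1, with Col1a1 at 1.51 CPM (0.572 to 0.69) and Col1a2 at 6.56 CPM (2.53 to 3.08). In KO replicate 1, Dcx had 2446 CPM (2593 to 2613), Dcn 3.47 CPM (2.66 to 2.73) and Cntn2 763 CPM (858 to 876). In WT replicate 4, Dlx5 had 28.7 CPM (38.6 to 40.5) and Slc17a7 had 86.8 CPM (73.1 to 75.2).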

How the results depend on the processing

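None of the 8 factors was called in any of the 18 alternative fits or at a threshold of 0.1, and adjusted p-values ran from 0.525 up. Tle4 stayed between 0.09 and 0.17 on the log2 scale, Zfpm2 between 0.13 and 0.27, Tbr1 between −0.16 and −0.06 and Bcl11a between −0.098 and −0.0027, each with its sign kept. The other 4 had no stable sign. Fezf2 was −0.025 with pan-neuronal library sizes and −0.18 with Xist as a covariate. Sox5 was −0.00070 with limma-voom, −0.037 with pan-neuronal library sizes, −0.13 with Xist and −0.071 with the length trend removed. Foxp2 was −0.030 and −0.059 under pan-neuronal library sizes and the length trend, and 0.15 with Xist. Bcl11b was −0.099 with the length trend removed and −0.055 with pan-neuronal library sizes. With each library left out, Bcl11b ran from −0.050 to 0.015, Fezf2 from −0.019 to 0.094, Sox5 from −0.050 to 0.10 and Foxp2 from −0.022 to 0.059. The cause was not tested. The count over all genes was 23 with DESeq2, 1 with relative log expression, upper-quartile scaling, the replicate block or Xist, 2 with the length trend removed, and 1 to 13 with each library left out (13 without WT replicate 4), against 4. Without the TMM factor 1 factor, Zfpm2, was apart in place of 2. In the order by level 4 of the 8 kept their rank per coding length and 1 with merged exons. Deviations of same-numbered WT and KO libraries correlated at 0.0236 to 0.135 over genes. KO replicates 1 to 3 and WT replicates 1 and 2 each correlated best with the library of their own number in the other group. KO replicate 4 and WT replicate 3 correlated best with each other (0.154), and WT replicate 4 with KO replicate 2 (0.0295). Whether replicate numbers pair the libraries was not tested. With the replicate block, Tle4 and Zfpm2 were 0.14 and 0.24. Depth limits the list genes with few reads, such as Tle6.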
